A study of Mus musculus with 12 samples.

Results

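The genes described here mark or serve the scattered non-neuronal cells of the olfactory epithelium that carry microvilli, and the related tuft cells and ionocytes. The 10 genes were named by symbol: Trpm5, Pou2f3, Chat, Gnat3, Alox5, Itpr3, Trpc6, Foxi1, Ascl3 and Cftr. Each was read from its probe with 1 gene symbol, and from the brightest such probe where a gene had several. All 10 were measured, on 1 probe each, of 19937 genes with a symbol of their own. The tissue was the olfactory epithelium of male C57BL/6 mice killed every 4 h, from circadian time (CT) 12 to CT56, in constant darkness after housing in a light and dark cycle. All pools shared strain, sex, prior lighting and darkness at sampling, and no pool was taken in light. For each of the 12 time points, RNA of 4 mice was pooled (48 mice altogether) and put on 1 Affymetrix array. Each of 6 phases of the day was thus sampled by 2 pools, 24 h apart. CT 0 to 12 is the subjective day and CT 12 to 24 the subjective night, with 6 pools each (CT24 and CT48, at phase 0 h, were counted as day).

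Microvillar cells are rare cells set among the sustentacular (supporting) cells. One kind expresses the cation channel TRPM5 and depends on the transcription factor POU2F3, like the tuft cells of other epithelia, and can make acetylcholine. Taste-type signalling in such cells runs from a G protein through a phospholipase and IP3 receptors to a rise in calcium that opens TRPM5. A second kind contains the type 3 IP3 receptor and shares with ionocytes of the airway the transcription factors FOXI1 and ASCL3 and the chloride channel CFTR. Several of the 10 genes are also used elsewhere, Alox5 by myeloid and mast cells and Cftr by other secretory epithelia, so in whole tissue their RNA can come from more than 1 cell type. Whether a level differed because there were fewer cells or less RNA per cell cannot be told apart.

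The promoters of 9 of the 10 genes were in the RefSeq table of GRCm38.p6. For each, the 250 bases before the annotated start were searched on both strands for 5 motifs tied to the clock or to the factors above. The E-box CACGTG is the element bound by CLOCK and BMAL1, and it was found in 3 of the 9 windows, against 6.05% of 27025 genes. The 3 windows with a match are shown 5′ to 3′ on the gene's strand, since they also hold every other match found. Capitals mark the matches.
Ascl3, chr7:109731733-109731982, minus strand: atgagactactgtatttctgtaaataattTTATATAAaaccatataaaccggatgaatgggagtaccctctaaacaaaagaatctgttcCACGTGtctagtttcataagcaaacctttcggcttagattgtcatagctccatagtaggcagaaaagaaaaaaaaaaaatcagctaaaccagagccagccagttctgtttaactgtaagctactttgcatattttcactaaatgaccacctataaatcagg
Chat, chr14:32465910-32466159, minus strand: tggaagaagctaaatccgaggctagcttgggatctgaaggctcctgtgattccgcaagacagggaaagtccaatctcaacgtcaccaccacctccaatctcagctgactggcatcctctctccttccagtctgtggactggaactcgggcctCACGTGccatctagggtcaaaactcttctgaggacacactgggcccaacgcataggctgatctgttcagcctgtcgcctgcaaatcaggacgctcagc
Itpr3, chr17:27057054-27057303, plus strand: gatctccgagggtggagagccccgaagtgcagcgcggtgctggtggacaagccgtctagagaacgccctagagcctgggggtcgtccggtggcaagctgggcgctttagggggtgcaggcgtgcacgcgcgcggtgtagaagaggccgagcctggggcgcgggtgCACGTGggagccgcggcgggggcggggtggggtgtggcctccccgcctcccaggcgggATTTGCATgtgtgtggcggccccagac

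The E-box lay 161 to 156 bases before the start in Ascl3, 98 to 93 in Chat and 85 to 80 in Itpr3. Ascl3 also held a D-box, searched as TTATNTAA and bound by DBP and its relatives, 221 to 214 bases before the start (3.33% of all windows have 1). Itpr3 held the POU octamer ATGCAAAT on the opposite strand, printed above as its reverse complement, 27 to 20 bases before the start (1.61% of all windows). None of these matches overlap. The ROR element core TAGGTCA (2.27% of all windows) and the forkhead element TGTTTAC (3.09%) had 0 matches in the 9 windows. The motifs were chosen after the expression values had been seen, and a match describes the letters in a window, not a binding site.

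The tissue label was borne out by its markers: Omp, the protein of mature olfactory neurons, read 12.70 to 13.08 in the 12 pools on the log2 intensity scale. Cyp2g1, an enzyme of sustentacular cells, read 13.64 to 13.79. The pools carried a clock, since limma's F test for a 24 h cosine called Dbp, Nr1d1 and Arntl, with amplitudes of 0.51, 0.42 and 0.35 log2 units (limma, adjusted p = 0.00173, 0.00173 and 0.0141). The CT56 pool had the lowest mean correlation with the others, 0.975, and CT32 the next, 0.981. Probe levels cannot be set against each other as amounts of RNA. In the order of all genes by mean probe level, 4.7% were dimmer than Gnat3, 13.1% than Trpc6 and 22.6% than Chat, and the deposited values carry no detection call. Whether these 3 probes stood above background is therefore not known.

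Over the 12 pools the 10 genes varied about as much as other genes. Their ranges ran from 0.35 log2 units (1.27-fold) for Itpr3 and Gnat3 to 0.62 (1.53-fold) for Ascl3, and the median range of all genes was 0.46. The SD was above the median of all genes, 0.134, in 5 of the 10. The ionocyte genes Ascl3 (SD 0.183) and Cftr (SD 0.175) varied most.

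**Figure D1:**
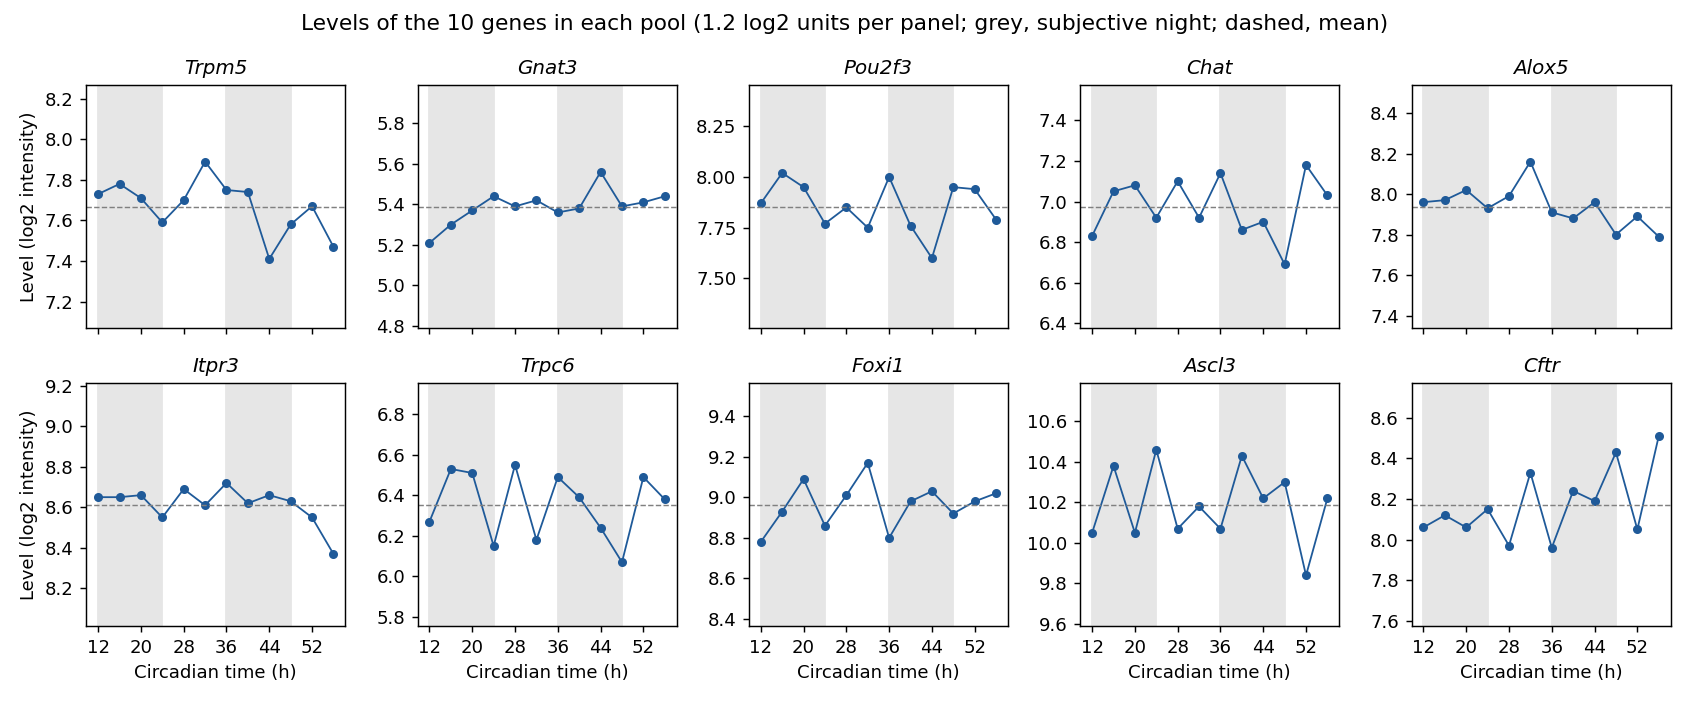
Deposited log2 intensity of each of the 10 genes (points, 1 pool of 4 mice each) against circadian time in h; every panel spans 1.2 log2 units, grey marks CT 12 to 24 of each cycle and the dashed line is the gene's mean. Ascl3 alternated between higher and lower values from pool to pool over much of the series, while Itpr3 stayed between 8.37 and 8.72.

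The first question was whether any of the genes follows a 24 h rhythm in darkness. None of the 10 passed (limma F test, adjusted p = 0.996 for each), against 0.0251% of all genes, which is 5 genes. At an unadjusted p under 0.05 there were also 0 of 10, against 3.54% of all genes. Without CT56 there was 1, Trpm5, with an amplitude of 0.13 (limma, adjusted p = 0.797). Fitted amplitudes ran from 0.02 ± 0.05 log2 units (SE, 12 pools) for Alox5 to 0.11 ± 0.07 for Ascl3, whose fitted peak lay 1.17-fold above its trough. Trpm5, the channel that defines the cells, had an amplitude of 0.09 ± 0.05. Pou2f3, the factor needed to form them, had 0.02 ± 0.05. The count of called genes stayed at 0 under each alternative tried.

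None of the 10 genes was called between subjective night and day either. The test called 0 of 10, and 0 at an unadjusted p under 0.05, beside 0% and 9.86% of all genes (limma). The second count was 1 of 10 with array weights (Trpc6), with quantile normalization (Itpr3) and without CT28 (Cftr, -0.19). Cftr had the widest difference, -0.14 log2 units night minus day (95% interval -0.32 to 0.05, limma, adjusted p = 0.528). Its night pools ranged from 7.96 to 8.24 (median 8.09) and its day pools from 7.97 to 8.51 (median 8.24), so the groups overlapped. Trpc6, a cation channel, had a difference of 0.10 (-0.09 to 0.28) and Itpr3 one of 0.09 (-0.03 to 0.22). With array weights the Trpc6 difference was 0.21 (limma, adjusted p = 0.153). For Chat, which encodes the enzyme that makes acetylcholine, the difference was 0.0033 (-0.17 to 0.18).

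**Figure D2:**
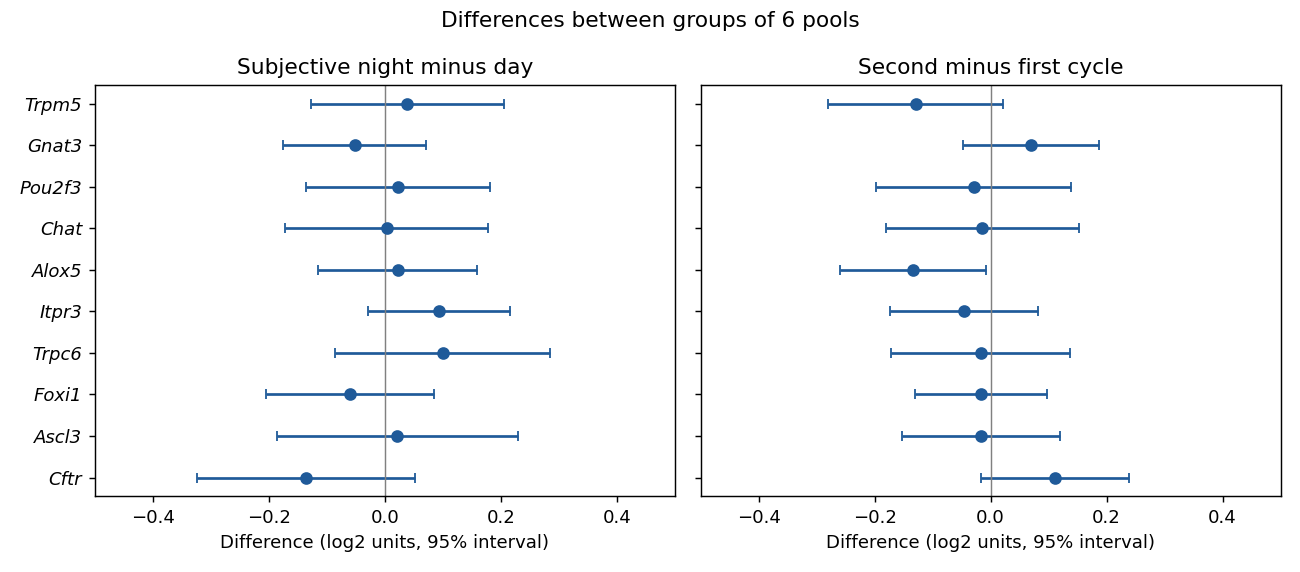
Difference in log2 intensity with its 95% interval from limma for each of the 10 genes: night minus day over 6 and 6 pools (left) and second minus first cycle over 6 pairs of pools of the same phase (right). All intervals on the left cross 0; on the right that of Alox5 alone does not.

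The 2 cycles differ by 24 h of further darkness, and also by the animals and arrays used. Alox5, the 5-lipoxygenase that starts leukotriene synthesis, had the widest difference. Its values at CT12 to CT32 were 7.96, 7.97, 8.02, 7.93, 7.99 and 8.16, and those at CT36 to CT56 were 7.91, 7.88, 7.96, 7.80, 7.89 and 7.79. The second pool was lower in 6 of 6 pairs, by up to 0.38 at phase 8 h (CT32 against CT56), and the cycles overlapped. The difference was -0.13 log2 units (95% interval -0.26 to -0.01, limma, adjusted p = 0.356), and its unadjusted p was under 0.05. Without CT32 or CT56, either of which removes that pair, it was -0.09. In this fit, leaving out either pool of a phase removes the pair, so leaving out each of the 12 pools gives 6 distinct results. The unadjusted p was over 0.05 in all of them but that without the pair of CT12 and CT36. It was also over 0.05 with a trended robust prior.

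Thus 0 of 10 genes were called between cycles (0% of all genes), and 1 of 10 had an unadjusted p under 0.05, where 13.2% of all genes did and 8.94% did so with a lower level in the second cycle. The share among the 10 is near that of all genes. A lower second cycle was common: 12295 of the 19937 genes had a negative difference. The mean of 8 olfactory neuron markers was 0.16 lower in the second cycle, and lower in 6 of 6 pairs, ranging from 11.76 to 11.89 in the first and from 11.56 to 11.73 in the second. The mean of 5 genes listed for vomeronasal neurons was also lower in 6 of 6 pairs, with a difference of -0.08. The widest difference among the 5 was that of Gnao1, -0.18 ± 0.05 (limma, adjusted p = 0.304). Trpc2, also on that list, was not measured. How far the 5 genes are particular to those neurons was not tested, so this mean is not a measure of them. Of 13 myeloid and mast cell markers, the cells in which Alox5 is best known, the mean lay between 6.95 and 7.29 in the first cycle and between 7.09 and 7.32 in the second. Over the 12 pools Alox5 had an r of 0.54 with the olfactory neuron mean (permutation p = 0.0663, adjusted p = 0.296). Spearman's rho was 0.65 (permutation p = 0.0254, adjusted p = 0.208). The r was 0.77 without the 2 pools farthest from the median of that mean, and 0.44 without CT56. With the myeloid and mast cell mean its r was -0.12 (permutation p = 0.719, adjusted p = 0.844). That mean was unweighted, and 1 of its genes, Ltf, spanned 8.77 to 11.29, more than any other of the 13. Between cycles Ltf differed by 0.52 ± 0.27 (limma, adjusted p = 0.422). The mean may thus follow Ltf more than the other markers, and the r without Ltf was not computed. The part of any of these cells in the Alox5 difference was not tested. Array weights, or leaving out CT12 or CT36, gave 3 of 10 genes with such a p, Trpm5 and Cftr beside Alox5. Trpm5 was lower in 5 of 6 pairs (-0.13, interval -0.28 to 0.02) and Cftr higher in 5 of 6 (0.11, -0.02 to 0.24).

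A 24 h cosine is only 1 shape of daily change, so the 6 phases were also fitted as a factor, an analysis added after the values had been seen. None of the 10 genes passed, against 0.0853% of all genes. Ascl3 (limma, adjusted p = 0.207) and Cftr (limma, adjusted p = 0.248) had an unadjusted p under 0.05, which is 2 of 10 beside 16.9% of all genes. When each pool was left out in turn, Ascl3 kept such a p in 12 of 12 cases and Cftr in 9, losing it without CT28, CT36 or CT56. Trpc6 had one in 5 cases (without CT12, CT20, CT36, CT44 or CT56) and Foxi1 in 1 (without CT56). None of the 10 passed in any of them, while the 17 genes called among all genes became 58 without CT20 and 41 without CT32. In the median gene of the 10, 48.0% of the variance lay between the 2 pools of a phase, against 43.4% in the median of all genes. The genes spread widely around that, from 11.2% in Foxi1 and 15.4% in Ascl3 to 82.4% in Alox5.

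Ascl3 encodes a transcription factor of the ionocyte lineage. It read 10.05, 10.38, 10.05, 10.46, 10.07 and 10.18 at CT12 to CT32, and 10.07, 10.43, 10.22, 10.30, 9.84 and 10.22 at CT36 to CT56. Higher and lower pools alternated: the 6 pools of phases 0, 8 and 16 h had a mean of 10.33 ± 0.11 (SD), and those of 4, 12 and 20 h 10.05 ± 0.12, with CT32 below CT44 as the overlap. Cftr read 8.06, 8.12, 8.06, 8.15, 7.97 and 8.33, then 7.96, 8.24, 8.19, 8.43, 8.05 and 8.51. It alternated in the same sense, with overlapping values and means of 8.30 ± 0.15 and 8.05 ± 0.08. Such alternation is an 8 h period, the shortest that pools 4 h apart can show, and it held 62.2% of the variance of Ascl3 and 55.4% of that of Cftr.

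The 8 h term called 0 of 10 genes (0% of all genes), and 2 of 10 had an unadjusted p under 0.05 (limma, adjusted p = 0.122 for Ascl3 and 0.127 for Cftr). The same term had such a p in 23.9% of all genes, so the share among the 10 is near that of all genes. Foxi1, the forkhead factor at the head of the ionocyte program, had a different course. It read 8.78, 8.93, 9.09, 8.86, 9.01 and 9.17 in the first cycle and 8.80, 8.98, 9.03, 8.92, 8.98 and 9.02 in the second. In both cycles the level at phase 12 h was the lowest, and phases 20 and 8 h were the highest of the night and day.

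Foxi1 thus repeated from cycle to cycle with a 12 h spacing, and 79.3% of its variance lay in the 12 h terms (amplitude 0.14, limma, adjusted p = 0.403). Trpc6 had the other unadjusted p under 0.05 for these terms (limma, adjusted p = 0.462). That makes 2 of 10 beside 10.5% of all genes, and 0 of 10 called beside 0.00502%. The shapes of the 3 ionocyte genes were not tested against each other.

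The next question was whether genes of the same rare cells move together from pool to pool. Among the 45 pairs of the 10 genes, 1 had a Pearson r of 0.7 or more, which is 2.22%, against 6.82% of all pairs of genes. The median r was 0.03 in both. At an unadjusted permutation p under 0.05 there were 6 of the 45 pairs (13.3%), the weakest with an absolute r of 0.58. Of all gene pairs, 23.2% had an absolute r at least as high. After adjustment 1 pair passed. The 14 pairs that share a role (TRPM5-type cell, calcium signalling or ionocyte) had a median of 0.15 and the other 31 pairs one of -0.13. This split depends on where Itpr3 is placed. It was put under calcium signalling, although the second kind of microvillar cell contains its protein beside FOXI1, ASCL3 and CFTR. Its r of -0.66 to Cftr, -0.20 to Foxi1 and -0.13 to Ascl3 therefore counted among the other 31. The 2 medians thus do not settle whether genes of the same cells move together.

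Within the TRPM5-type genes, Trpm5 and Pou2f3 had an r of 0.45 (12 pools, permutation p = 0.141, Spearman's rho 0.27 with p = 0.405), which was -0.12 without the 2 pools farthest from the Trpm5 median, CT44 and CT56, and 0.71 without CT32 and CT56. Trpm5 and Alox5 had an r of 0.61 (permutation p = 0.0343, adjusted p = 0.317 over 45 pairs, rho 0.51 with p = 0.0924), which was 0.76 without those 2 pools but 0.18 without CT32 and CT56. Gnat3, the taste G protein gustducin, ran against both, with an r of -0.61 to Trpm5 (permutation p = 0.0352, adjusted p = 0.317, rho -0.63 with p = 0.0319) and -0.65 to Pou2f3 (permutation p = 0.0228, adjusted p = 0.317, rho -0.71 with p = 0.0114). Without the 2 pools farthest from the Trpm5 or the Pou2f3 median, these were -0.23 and -0.27, and without CT32 and CT56 they were -0.80 and -0.64. In the ionocyte genes, Ascl3 and Cftr had an r of 0.46 (permutation p = 0.134, rho 0.57 with p = 0.0599; 0.53 without CT52 and CT24). Foxi1 had an r of -0.08 to Ascl3 (permutation p = 0.809, rho -0.14 with p = 0.667; 0.10 without CT52 and CT24) and of 0.35 to Cftr (permutation p = 0.262, rho 0.27 with p = 0.404; 0.51 without CT56 and CT48).

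**Figure D3:**
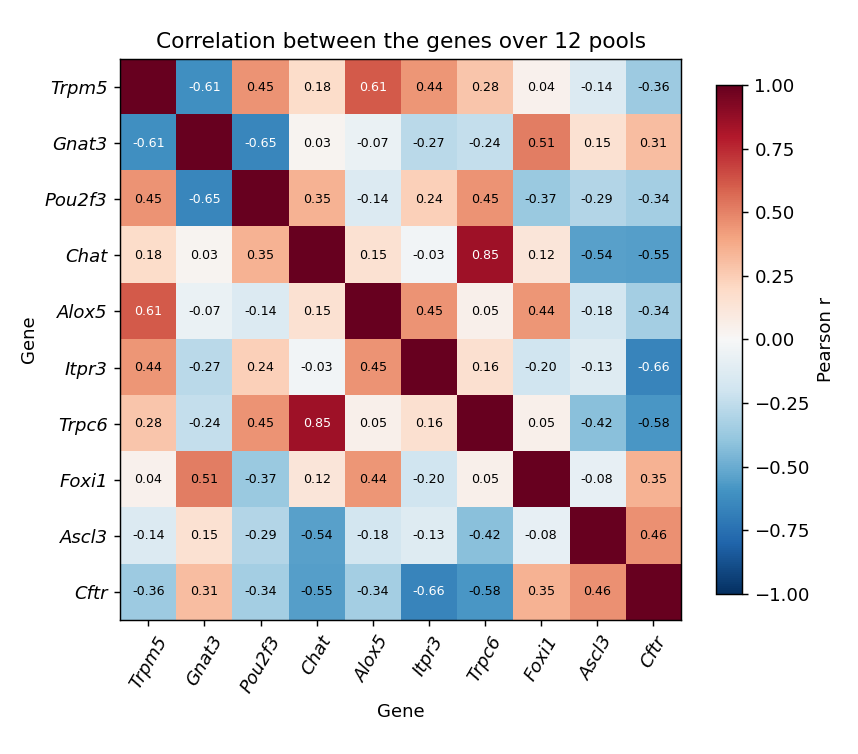
Pearson r over the 12 pools for each pair of the 10 genes, in colour from -1 (blue) to 1 (red) and printed in the cell, ordered by role (TRPM5-type, calcium signalling, ionocyte). The pair of Chat and Trpc6, at 0.85, is the 1 pair above 0.7.

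The pair that passed the adjusted test joined Chat and Trpc6, which were placed under different roles. Chat read 6.83, 7.05, 7.08, 6.92, 7.10 and 6.92 in the first cycle and 7.14, 6.86, 6.90, 6.69, 7.18 and 7.03 in the second. Trpc6 read 6.27, 6.53, 6.51, 6.15, 6.55 and 6.18, then 6.49, 6.39, 6.24, 6.07, 6.49 and 6.38. Both were lowest at CT48, and the 5 highest pools of Trpc6 were the 5 highest of Chat. Their r was 0.85 (permutation p = 0.00073, adjusted p = 0.0328 over 45 pairs). The call was lost with ranks (rho 0.73, permutation p = 0.0097, adjusted p = 0.219) and without CT56 (r 0.85, adjusted p = 0.0733), and r was 0.77 without the 2 pools farthest from the Chat median, CT48 and CT52.

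The level of dim probes over the pools was set beside both genes. The 25th percentile of all 34760 probes, which ranged from 6.57 to 6.71 over the pools, had an r of 0.80 with Trpc6 (permutation p = 0.00136, adjusted p = 0.0363, rho 0.73 with p = 0.00976 and adjusted p = 0.156, 0.76 without the 2 farthest pools). With Chat the r was 0.74 and did not pass (permutation p = 0.0061, adjusted p = 0.0857, rho 0.63 with p = 0.0337, 0.52 without the 2 farthest). These were 2 of 80 relations between the 10 genes and 8 measures of the pools (the means of 7 cell type marker lists and this percentile), all looked at after the values had been seen and adjusted together. With the percentile removed from both genes by a linear term, their r was 0.63.

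Of the 80 relations 16 had an unadjusted permutation p under 0.05 and 3 passed the adjusted test. The share of all genes with such relations was not computed, so how common they are is not known. The closest was that of Gnat3 with the nasal glands, whose secreted proteins enter the mucus. Gnat3 read 5.21, 5.30, 5.37, 5.44, 5.39 and 5.42 in the first cycle and 5.36, 5.38, 5.56, 5.39, 5.41 and 5.44 in the second. The mean of 11 gland genes ranged from 9.48 at CT12 to 11.60 at CT44, and the same 2 pools held the ends of Gnat3. Their r was 0.87 (permutation p = 6e-05, adjusted p = 0.0048, rho 0.92 with p = 4e-05, adjusted p = 0.0032), and 0.84 without the 2 pools farthest from the median. Gnat3 also had an unadjusted permutation p under 0.05 with the olfactory neuron (r -0.71), respiratory (0.68), basal cell (0.67) and myeloid and mast cell (0.61) means. None of these passed (adjusted p = 0.0931 to 0.189). With the sustentacular and vomeronasal means and the 25th percentile its r was -0.14, -0.36 and -0.18. The Gnat3 probe spanned only 0.35 log2 units, while the gland gene Bpifb9b spanned 5.93 to 13.12. The gland mean was unweighted, so it mostly followed the genes with SDs of 1.46 to 2.24, among them Bpifb9b and Bpifb9a. The other gland genes had SDs of 0.10 to 0.42. Apart from Bpifb9b and Bpifb9a, the wide-spread genes had an r with Gnat3 of 0.47 to 0.60.

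Gland genes did not all take part. Of the 11, 9 had a positive r with Gnat3 and 3 had 0.7 or more: Bpifb9a (0.84), Bpifb9b (0.83) and Bpifa1 (0.71), which encode secreted proteins of the BPI fold family. The water channel Aqp5 had -0.37 and the mucin Muc5b -0.12. The part of gland tissue in the Gnat3 level was not tested. The third relation to pass joined Chat with the sustentacular cells. Chat had an r of -0.82 with the mean of 6 sustentacular genes, which ranged from 12.05 to 12.24 (permutation p = 0.00097, adjusted p = 0.0363, rho -0.76 with p = 0.00543 and adjusted p = 0.156, -0.77 without the 2 farthest pools). That mean was highest at CT48 (12.24) and CT24 (12.22), where the 25th percentile of all probes was 6.57 and 6.59. Trpc6 had an r of -0.68 with the same mean and Ascl3 one of 0.74. Neither passed (permutation p = 0.017 and 0.00643, adjusted p = 0.136 and 0.0857). The percentile term was not applied to these relations, and the part of the dim-probe level in them was not tested.

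**Figure D4:**
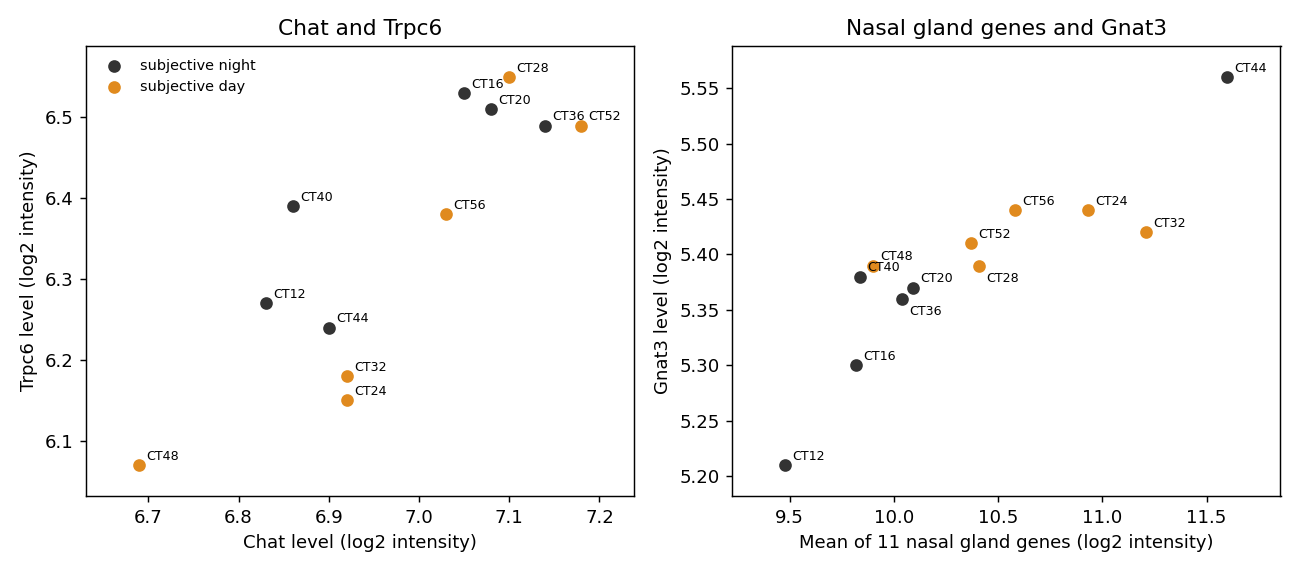
Log2 intensity of Trpc6 against Chat (left) and of Gnat3 against the mean of 11 nasal gland genes (right), 1 point per pool, labelled by circadian time; black points are night pools and orange points day pools. CT48 is lowest for both Chat and Trpc6, and CT12 and CT44 are the ends of the right plot.

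The genes most like each of the 10 over the pools, by Pearson r, are given as a description. For the TRPM5-type genes these were Spata2 (0.94) and Cchcr1 (0.93) for Trpm5, 1700009J07Rik (0.88) and Extl1 (0.87) for Pou2f3, Prr18 (0.97) and Pdyn (0.96) for Chat, Ptprd (0.90) and Dapl1 (0.88) for Gnat3, and Uhrf1bp1 (0.95) and Tppp (0.93) for Alox5. For the calcium signalling genes they were Rdh1 and Pik3ap1 (0.95 each) for Itpr3 and Nrgn and Cela3a (0.94 each) for Trpc6. For the ionocyte genes they were Cldn1 (0.89) and Hdac8 (0.88) for Foxi1, Bcl6 and Asap1 (0.93 each) for Ascl3, and AB010352 and Tmem65 (0.96 each) for Cftr. None of these is another of the 10. Without CT56 the values for Itpr3 were 0.84 and 0.81, and the others stayed at 0.87 or above. The number of genes with an r of 0.7 or more ran from 145 for Pou2f3 to 2015 for Cftr, 2074 for Chat and 2176 for Trpc6.

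Other genes known from the same cells and pathways behaved alike, with 0 called by any of the 3 fits in the 5 lists that follow. Of 27 further tuft or TRPM5 cell genes, 26 were measured. At an unadjusted p under 0.05 there were 0 in the 24 h fit and 0 between night and day, beside 3.54% and 9.86% of all genes. Between cycles 3 of 26 did: Rgs13, a regulator of G protein signalling (0.18 ± 0.06 SE higher in the second cycle, limma, adjusted p = 0.304), Gng13, the G protein gamma subunit of taste cells and olfactory neurons (0.15 ± 0.06, adjusted p = 0.347), and Vav1, an exchange factor of blood cells and tuft cells (-0.16 ± 0.06, adjusted p = 0.318). That is 11.5%, near the 13.2% of all genes. The median difference between night and day was 0.061 over this list and -0.004 over all genes. Several genes of the list were dim, such as Tas2r105 with a mean of 4.71. The 25th percentile of all probes read 6.63 to 6.71 in night pools and 6.57 to 6.68 in day pools. The list was not compared with equally dim genes, and the part of the dim-probe level was not tested.

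Of 23 further ionocyte and microvillar genes, 21 were measured. Npy, a neuropeptide made by microvillar cells, had a 24 h amplitude of 0.15 ± 0.04 (limma, adjusted p = 0.996) and a night minus day difference of 0.19 ± 0.06 (adjusted p = 0.497). Slc12a2, the sodium, potassium and chloride cotransporter NKCC1, had an amplitude of 0.11 ± 0.04 (limma, adjusted p = 0.996). Stap1 had a difference of 0.17 ± 0.06 between cycles (adjusted p = 0.32). In each fit 2 of 21 genes (9.52%) had an unadjusted p under 0.05, beside 3.54% of all genes in the 24 h fit, 9.86% between night and day and 13.2% between cycles. Atp6v1b1, the proton pump subunit of ionocytes, was not among them, with an amplitude of 0.12 ± 0.05 (limma, adjusted p = 0.996).

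Of 17 further genes of leukotriene and prostaglandin synthesis and reception, 16 were measured. Ptgs2, the inducible cyclooxygenase, had an amplitude of 0.32 ± 0.08 with a fitted peak at CT 6.9 (limma, adjusted p = 0.946). At an unadjusted p under 0.05 there were 2 of 16 in the 24 h fit, 0 between cycles and 4 between night and day. Of all genes, 3.54% had one in the 24 h fit, 13.2% between cycles and 9.86% between night and day. The 4 between night and day included the 2 prostaglandin D synthases, of opposite sign. Hpgds differed by -0.34 ± 0.11 and Ptgds by 0.19 ± 0.06 (limma, adjusted p = 0.497 each). Alox5ap, the partner protein of 5-lipoxygenase, had a difference of -0.09 ± 0.05 between cycles (limma, adjusted p = 0.457), and Ltc4s, the leukotriene C4 synthase, one of 0.05 ± 0.08.

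Of 12 genes of acetylcholine signalling, 2 of which (Slc18a3 and Slc5a7) also stand in the tuft list above, all 12 were measured. The esterase Ache (-0.19 ± 0.08) and the muscarinic receptor Chrm1 (0.16 ± 0.07) had an unadjusted p under 0.05 between night and day (limma, adjusted p = 0.497 each), and the choline transporter Slc44a1 between cycles (0.37 ± 0.16, adjusted p = 0.356). Slc18a3, which loads acetylcholine into vesicles, differed by 0.14 ± 0.11 between night and day (limma, adjusted p = 0.559). In the 24 h fit 0 of the 12 had such a p, beside 3.54% of all genes. The shares between night and day and between cycles were 16.7% and 8.33%, beside 9.86% and 13.2% of all genes.

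Of 20 further TRP channels, 18 were measured, and 1, 2 and 2 of them had an unadjusted p under 0.05 in the 24 h, night and day, and cycle fits. These shares of 5.56%, 11.1% and 11.1% are near the 3.54%, 9.86% and 13.2% of all genes. Trpv2 had the smallest p in this list in all 3 fits, with an amplitude of 0.23 ± 0.06, a night minus day difference of -0.30 ± 0.08 and a cycle difference of -0.16 ± 0.06 (limma, adjusted p = 0.946, 0.497 and 0.305).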

How the data were processed

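Total RNA of 12 pools was amplified with random primers, biotin-labelled and read on Affymetrix arrays, per the labels' protocols. The deposited values were read as log2 intensity from their range, 3.48 to 14.47, with column medians of 7.81 to 7.92. The submitters' processing notes name affy. How background was corrected and arrays normalized is not given in the sources used here. Of 34760 probes, 21640 have 1 gene symbol in the platform annotation, 1321 several and 11799 are not listed, which left 19937 genes. Values were used as deposited, with no filter.

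Fits used limma 3.58.1 in R 4.3.3: a 24 h cosine and sine, night minus day, and second minus first cycle with phase as a factor, with Benjamini-Hochberg adjustment over all genes and a threshold of 0.05. Correlations used 100000 permutations, two-sided, in scipy 1.17.1 and numpy 2.4.6. The fits were tested on simulated data. Of added effects of 0.3 log2 units (amplitude or difference), the 24 h fit found 70.1%, night minus day 41.8% and the cycle fit 37.3%. At 0.5 these were 92.5%, 92.5% and 82.1%. False calls were 14, 6 and 7 of 19937 genes. The simulated noise was independent between genes, and the added effects themselves ease the adjusted threshold. The real 24 h, night minus day and cycle fits called 5, 0 and 0 genes. The shares found can therefore overstate what the tests on the 10 genes would find. Differences of 0.3 would often be missed, and larger ones may be missed more often than these shares give. The p-values measure the spread between single pools, and precision is limited by the number of arrays. Named genes are the 10 members, the 2 genes with the highest r to each, up to 3 genes per list with the smallest p in any fit or needed to check the tissue, and Dbp, Nr1d1 and Arntl. Muc5b, Bpifa1, Bpifb9a, Slc5a7, Alox5ap, Ltc4s, Atp6v1b1, Slc18a3 and Ltf were named outside that rule, after their values were seen. Trpc2, which was not measured, was named outside it too. Alternatives were quantile normalization, median centring, filters at the 25th and 50th percentiles, averaging a gene's probes, a trended robust prior, array weights, other periods and terms, and leaving out pools. The 10 genes and the lists were chosen with earlier results of these data known. Phase as a factor, its 12 h and 8 h parts, the 80 relations, the percentile term and the motifs (after a look with shorter forms) were chosen after the values were seen.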

Additional observations from a re-analysis of the deposited data

Results flagged for a closer look

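Among 40 groups of 6 pools (each gene by night, day, first and second cycle), 2 had a pool far from the rest, and chance alone flags about 1 in 20 groups, or 2 of 40. Trpm5 at CT44 was 7.41, where the other night pools read 7.71 to 7.78; the gap was 0.812 of the group's range. Gnat3 at CT44 was 5.56, where the other pools of the second cycle read 5.36 to 5.44; the gap was 0.636 of the range. Both lie in the pool with the highest mean of the gland genes, 11.60, and that pool also had the lowest mean of the olfactory neuron genes, 11.56. The part of either in these values was not tested.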

How the results depend on the processing

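In the 3 fits, 0 of the 10 genes were called under each alternative run, and for the 24 h fit this covers amplitudes only, since shifts of peak time were not counted. The adjusted pair count of 1 became 0 with Spearman's rho, 0 without CT56 and 2 without CT32 and CT56. Small differences changed sign, and none of these was past the threshold. For night minus day, Chat was -0.044 after quantile normalization and -0.019 after median centring, which also gave Ascl3 -0.001 and Alox5 -0.0003. Array weights gave Ascl3 -0.146 and Foxi1 0.036, and leaving out CT32 and CT56 gave Pou2f3 -0.013. For the cycles, array weights gave Ascl3 0.015 and leaving out CT32 and CT56 gave Foxi1 0.0091. Leaving out each pool, night minus day ran from -0.0089 to 0.076 for Pou2f3, from -0.053 to 0.045 for Chat, from -0.046 to 0.077 for Ascl3 and from -0.0058 to 0.069 for Alox5. The cycle difference ran from -0.071 to 0.036 for Pou2f3, from -0.079 to 0.029 for Chat, from -0.054 to 0.027 for Ascl3, from -0.032 to 0.0091 for Foxi1 and from -0.066 to 0.033 for Trpc6. The cause was not tested. Over all genes, calls ran from 0 to 7 for the 24 h fit (0 at a period of 22 h) and from 0 to 18 for the cycles (18 without CT12 or CT36). Genes with an unadjusted p under 0.05 ran from 480 to 2143 for the 24 h fit, 473 to 4763 for night minus day and 1416 to 4231 for the cycles. With the filter at the 50th percentile, 3 of the 10 genes remained in the fit, and 7 at the 25th. Each pool is 1 array, and signal over background is unknown for the dim probes.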
